A study of Homo sapiens with 6 samples.

Results

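The hepatocyte lineage transcription factors examined here are HNF4A, FOXA1, FOXA2, FOXA3, CEBPA, CEBPB, NR5A2 and PROX1, taken by gene symbol as the liver-enriched regulators of the hepatocyte program, and they are 8 of the 20422 genes in the count table. HepG2, an established human liver cancer line, was sequenced in 2 groups of 3 libraries. The NC cells carried the empty vector, and the ORF-Flag cells overexpressed APPLE, a microprotein encoded by the long non-coding RNA ASH1L-AS1, fused to a Flag tag. The GEO labels describe transfection with plasmids, whereas the study's methods describe stable lines made with lentiviral vectors and puromycin selection, so the way the construct was delivered is not settled here. Nothing in the sources used here says that the 3 libraries of a group came from separate cultures, and the p-values therefore measure the spread between these libraries, which may be technical. The NC libraries held 20081203, 24907524 and 30088457 counts and the ORF-Flag libraries held 26866148, 17494668 and 27015836. Here and below the values of a group follow the order of its replicates 1, 2 and 3. The level of ASH1L-AS1 itself was not analysed here.

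Hepatocyte identity is held by a small network of DNA-binding proteins that bind their own and one another's genes as well as the genes of plasma proteins, lipid transport and bile acid metabolism. HNF4A is a nuclear receptor at the center of this network, the FOXA proteins open compacted chromatin early in liver development, and the C/EBP proteins drive metabolic and acute phase genes. NR5A2 is a nuclear receptor that controls bile acid and cholesterol genes, and PROX1 is a homeobox protein needed for the outgrowth of the liver bud, which can also bind HNF4A and NR5A2 and repress their activity. In bulk RNA of this kind, fewer cells that express a gene and less RNA of it per cell cannot be told apart.

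The network was present in both groups, and none of its 8 genes was called between ORF-Flag and NC. All 8 passed the filter on low counts, and 0 of 8 had an adjusted p below 0.05 in edgeR's quasi-likelihood test, against 551 of 12386 tested genes, or 4.45% (2.47% higher and 1.98% lower in ORF-Flag). The number of called genes among all tested genes changed with single libraries left out. It was 1058 without NC replicate 3, with 502 higher and 556 lower, 459 and 267 without NC replicates 1 and 2, and 300, 278 and 199 without ORF-Flag replicates 1, 2 and 3. The lowest adjusted p belonged to CEBPA, which encodes C/EBP alpha, the factor of the resting and metabolically active hepatocyte, at a log2 fold change of -0.31 and an adjusted p of 0.0521. At an unadjusted p below 0.05 there were 2 members, CEBPA and FOXA1, both lower in ORF-Flag, against 18.5% of all tested genes. With 1 library left out that number was between 1 and 4, at 4 without NC replicate 3 and at 1 without NC replicate 1, ORF-Flag replicate 1 or ORF-Flag replicate 2. DESeq2 and limma-voom also called 0 of the 8, beside 431 and 527 of all 12386 tested genes. CEBPA was the 1 factor called by limma-trend, beside 594 of 12386. In 0 of 8 members were the ranges of the groups apart, against 22.4% of all tested genes. The median log2 fold change was -0.04 over the 8 members and -0.0012 over all tested genes.

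**Figure D1:**
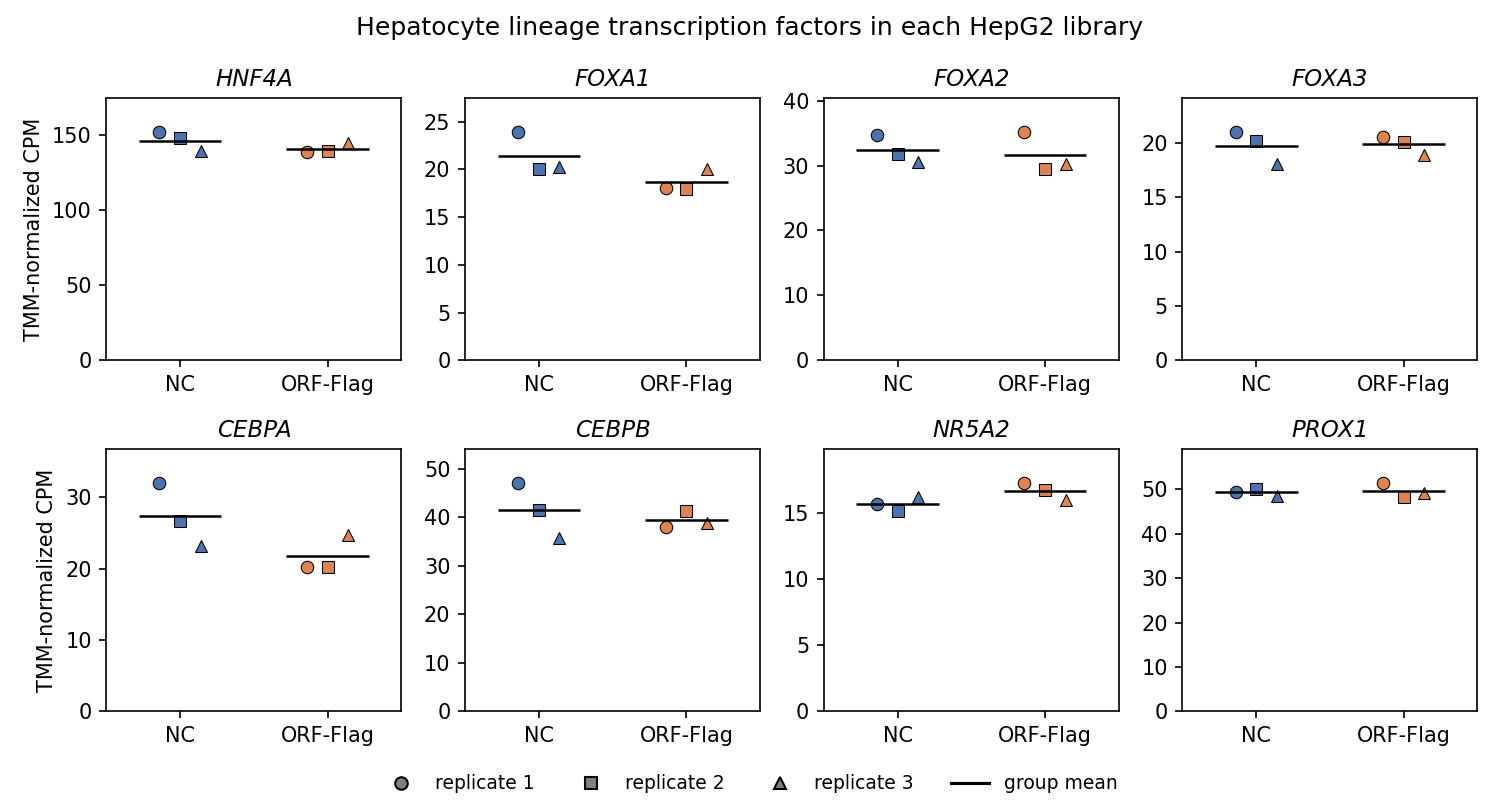
TMM-normalized CPM (counts scaled to library size, vertical axis from 0) of each factor in the 3 NC and 3 ORF-Flag libraries, with a marker for each replicate and a line at the group mean (n = 3). The groups overlap in all 8 panels, and NC replicate 1 is the highest NC library in 6 of them.

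HNF4A, the nuclear receptor at the head of the network, was measured at 152, 148 and 139 CPM in NC and at 139, 139 and 145 CPM in ORF-Flag. CPM is a gene's count scaled to library size, here with the TMM factors of edgeR. The groups overlapped, since ORF-Flag replicate 3 lay between the NC libraries and NC replicate 3 lay just above the other ORF-Flag libraries. The means were 146 ± 6.47 CPM in NC and 141 ± 3.33 CPM in ORF-Flag (SD, n = 3), and the log2 fold change was -0.05 (95% interval -0.13 to 0.03, edgeR adjusted p = 0.507). It was -0.03 without NC replicate 1 and -0.09 without NC replicate 3 (edgeR adjusted p = 0.802 and 0.151).

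The human HNF4A gene has 2 transcription start regions in the RefSeq promoter table, an upstream one known for use in pancreas and fetal liver and a downstream one known for use in adult liver. The gene lies on the plus strand of chromosome 20 from 44355700 to 44434596 (GRCh38) with 9 transcripts in GENCODE v29, and counts per gene do not separate the 2 start regions. The 250 bases before each start are shown because both can feed the same count. The upstream stretch is chr20:44355449-44355698 and the downstream stretch is chr20:44400989-44401238, both read from RefSeq (GRCh38.p14) on the plus strand. Neither holds any of the 4 motifs searched, so no base is in capitals.
HNF4A upstream start: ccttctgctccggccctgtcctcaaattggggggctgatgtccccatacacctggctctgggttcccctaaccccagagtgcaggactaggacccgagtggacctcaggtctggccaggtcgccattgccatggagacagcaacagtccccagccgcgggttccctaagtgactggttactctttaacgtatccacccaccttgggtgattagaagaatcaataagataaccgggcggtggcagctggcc
HNF4A downstream start: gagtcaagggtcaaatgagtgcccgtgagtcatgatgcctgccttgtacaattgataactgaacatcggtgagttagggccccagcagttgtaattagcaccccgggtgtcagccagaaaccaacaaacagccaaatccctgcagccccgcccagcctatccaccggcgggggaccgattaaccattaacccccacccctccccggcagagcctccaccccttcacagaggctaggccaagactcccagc

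The FOXA genes encode forkhead pioneer factors that bind nucleosomal DNA. FOXA1 stood at 23.9, 20.02 and 20.2 CPM in NC and at 18.1, 18.0 and 20.1 CPM in ORF-Flag. ORF-Flag replicates 1 and 2 were below every NC library, while ORF-Flag replicate 3 was level with NC replicates 2 and 3, so the groups overlapped. The log2 fold change of FOXA1 was -0.18 ± 0.08 (SE; 95% interval -0.34 to -0.02, unadjusted p = 0.0256, edgeR adjusted p = 0.197), and without NC replicate 1, the highest library, it was -0.10.

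FOXA2, which acts with FOXA1 in the specification of the liver, had values of 34.8, 31.8 and 30.5 CPM in NC and of 35.1, 29.4 and 30.3 CPM in ORF-Flag. Its highest and its lowest value were both in ORF-Flag libraries, and the log2 fold change was -0.02 (95% interval -0.16 to 0.12, edgeR adjusted p = 0.905). FOXA3, the third gene of the family and also active in the adult liver, had 21.0, 20.1 and 18.1 CPM in NC and 20.6, 20.1 and 18.9 CPM in ORF-Flag. All ORF-Flag values of FOXA3 lay within the NC range, with a log2 fold change of 0.01 (95% interval -0.13 to 0.16, edgeR adjusted p = 0.947).

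As a share of the 3 FOXA genes' counts per kilobase of exon, in which library size cancels, FOXA2 held the most RNA, FOXA3 came next and FOXA1 was lowest in all 6 libraries. FOXA1 made up 20.7%, 19.0% and 20.3% of the total in NC and 16.6%, 18.1% and 19.9% in ORF-Flag. The ranges overlapped, the means were 20.02% ± 0.898 and 18.2% ± 1.69 (SD), and an exact two-sided permutation test over the 6 libraries gave p = 0.2 (0.45 after Benjamini-Hochberg adjustment over the 3 shares). FOXA3 made up between 32.9% and 34.7% in NC and between 34.1% and 36.7% in ORF-Flag (exact permutation p = 0.3, adjusted 0.45). For FOXA2 the range was 46.2% to 46.8% in NC and 45.2% to 49.2% in ORF-Flag (exact permutation p = 1, adjusted 1). With 1 library left out, ORF-Flag minus NC was between -2.71 and -1.02 percentage points for FOXA1 (-1.83 with all 6), between 0.562 and 1.9997 for FOXA3 (1.42 with all 6) and on either side of 0 for FOXA2. The smallest p that 3 against 3 libraries allow in this test is 0.1.

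CEBPA and CEBPB encode leucine zipper factors that bind the same DNA letters as dimers, C/EBP alpha being linked with the resting, differentiated hepatocyte and C/EBP beta with regeneration and the acute phase. CEBPA was counted at 32.0, 26.7 and 23.2 CPM in NC and at 20.3, 20.2 and 24.7 CPM in ORF-Flag. ORF-Flag replicates 1 and 2 were below every NC library, but ORF-Flag replicate 3 was above NC replicate 3, so the groups overlapped. The means were 27.3 ± 4.39 CPM and 21.7 ± 2.59 CPM (SD, n = 3), a ratio of 0.806 in the fit, with a log2 fold change of -0.31 ± 0.09 (SE; 95% interval -0.50 to -0.12, unadjusted p = 0.00244, edgeR adjusted p = 0.0521).

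The log2 fold change of CEBPA was alike between tools, at -0.33 with DESeq2, -0.32 with limma-trend and -0.29 with limma-voom, whereas its adjusted p crossed 0.05 with the tool, the filter and single libraries. Over 16 alternatives the log2 fold change was between -0.42 and -0.19, and CEBPA was called in 4 of them. Those were limma-trend (adjusted p = 0.0392), edgeR with no filter on low counts (0.000447), and edgeR without NC replicate 3 (0.000736) or without ORF-Flag replicate 3 (0.0260). The adjusted p was between 0.000447 and 0.317 (DESeq2) in the fits that test for no change, and 1 in glmTreat, which tests for a change above 1.2-fold. Without NC replicate 1, its highest library, the log2 fold change was -0.19 (edgeR adjusted p = 0.204).

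CEBPA is a single-exon gene of 2631 bases on the minus strand of chromosome 19, from 33299934 to 33302564. On the opposite strand the transcripts AC008738.3 and AC008738.5 overlap 43.4% of its exon bases in GENCODE v29. The use of strand in the counting is not given in the sources used here. Whether reads of CEBPA and of these antisense transcripts were kept apart is therefore not known. The 220 bases before the annotated transcript are shown because CEBPA had the lowest adjusted p of the 8 factors. They are chr19:33302565-33302784, written 5′ to 3′ on the minus strand from RefSeq (GRCh38.p14), and they hold none of the 4 motifs searched.
CEBPA promoter: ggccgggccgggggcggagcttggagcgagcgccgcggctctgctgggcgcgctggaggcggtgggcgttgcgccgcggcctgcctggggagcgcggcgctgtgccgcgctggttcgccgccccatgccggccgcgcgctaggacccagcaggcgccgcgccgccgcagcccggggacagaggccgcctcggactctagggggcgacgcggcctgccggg

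CEBPB had 47.0, 41.6 and 35.8 CPM in NC and 37.9, 41.4 and 38.9 CPM in ORF-Flag. All 3 ORF-Flag values lay inside the NC range. The log2 fold change was -0.07 (95% interval -0.21 to 0.08, edgeR adjusted p = 0.669) and rested on single NC libraries, at 0.03 without NC replicate 1 and at -0.17 without NC replicate 3 (edgeR adjusted p = 0.895 and 0.0848). An antisense transcript, CEBPB-AS1, overlaps 11.8% of its exon bases.

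NC replicate 1 was the highest library for both C/EBP genes. Within NC their ratio varied less than either gene, with an SD of 3.00% of its mean, against 16.1% for CEBPA and 13.5% for CEBPB. This did not hold in ORF-Flag. There the means were 2.46 ± 0.325 for the ratio, 21.7 ± 2.59 CPM for CEBPA and 39.4 ± 1.78 CPM for CEBPB (SD, n = 3). The ratio of CEBPB to CEBPA, in counts per kilobase of exon, was 1.98, 2.09 and 2.07 in NC and 2.52, 2.76 and 2.12 in ORF-Flag. Every ORF-Flag library was above every NC library, although ORF-Flag replicate 3 lay close to the NC range. On the log2 scale the mean was 1.03 ± 0.04 in NC and 1.29 ± 0.19 in ORF-Flag (SD, n = 3), a difference of 0.26, and the exact two-sided permutation test gave p = 0.1, which is the smallest p that this design allows and is not below 0.05. The difference ranged from 0.17 without ORF-Flag replicate 2 to 0.36 without ORF-Flag replicate 3. The annotated GC content of the pair is nearly the same, at 65.9% for CEBPA and 66.2% for CEBPB, and the antisense overlap of CEBPA applies to this ratio as well.

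**Figure D2:**
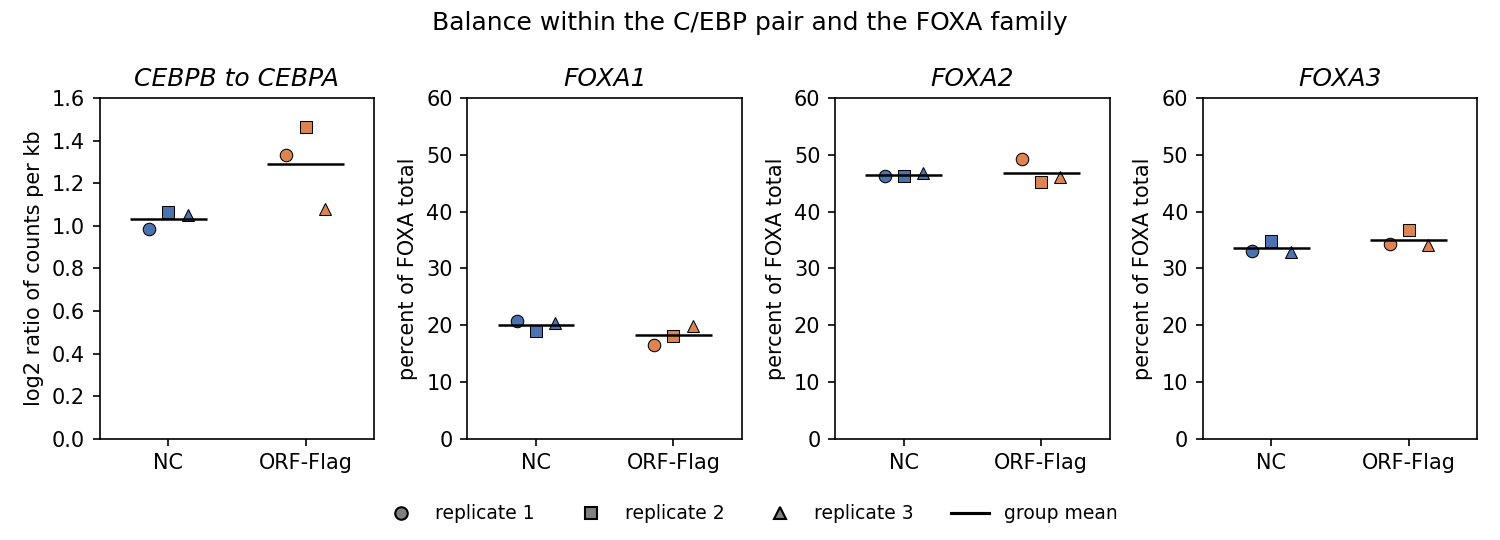
The log2 ratio of CEBPB to CEBPA in counts per kilobase of exon (left panel) and the percent that each FOXA gene makes up of the FOXA total (other panels) in each library, with markers for replicates and a line at the group mean (n = 3). The C/EBP ratio lies between 0.98 and 1.07 in NC and between 1.08 and 1.46 in ORF-Flag, and the FOXA shares of the groups overlap.

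NR5A2, also called LRH-1, is a nuclear receptor that activates CYP7A1 and other genes of bile acid synthesis. Its values were 15.7, 15.2 and 16.2 CPM in NC and 17.3, 16.8 and 16.0 CPM in ORF-Flag. ORF-Flag replicates 1 and 2 exceeded every NC library and ORF-Flag replicate 3 did not. The log2 fold change was 0.09 (95% interval -0.06 to 0.24, edgeR adjusted p = 0.577), the highest of the 8 factors.

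Among the 9 promoter windows found for 6 of the 8 factors, a single window held any of the motifs searched, and it belongs to NR5A2. The stretch is the 250 bases before the second NR5A2 start in the table, chr1:200042341-200042590 on the plus strand (RefSeq, GRCh38.p14), and the capitals mark the FOXA letters TGTTTAC, read here on the other strand as GTAAACA, at bases -105 to -99 from the start. These letters occur in 3.42% of the 35116 promoter windows of the table, counting both strands.
NR5A2 second start: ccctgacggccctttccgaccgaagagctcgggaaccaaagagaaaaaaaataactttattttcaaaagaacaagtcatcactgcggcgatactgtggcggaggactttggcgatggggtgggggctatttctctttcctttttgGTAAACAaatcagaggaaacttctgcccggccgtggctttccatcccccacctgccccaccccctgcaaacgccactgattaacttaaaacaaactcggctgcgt

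The other motifs searched on both strands were TTGCGCAA for C/EBP proteins, held by 0.151% of all windows, CAAAGTCCA for HNF4A, held by 0.384%, and CAAGGTCA for NR5A2, held by 1.28%, and none of the 9 windows held them. A window runs from 250 bases before to 50 bases after a start, and a match of letters is a description and not a binding site. The windows of the factors had a median GC content of 69.3% and a median of 31 CpG pairs, against 58.7% and 14 over all windows. They spread widely, from 36.7% GC and 0 CpG pairs at the first NR5A2 start to 80.7% GC and 50 CpG pairs at CEBPA. FOXA2 and PROX1 were not matched in the table.

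PROX1, the homeobox factor that can restrain HNF4A and NR5A2, had the least spread over the 6 libraries relative to its mean, an SD of 2.30%. It was found at 49.4, 50.05 and 48.4 CPM in NC and at 51.4, 48.4 and 49.1 CPM in ORF-Flag. The groups overlapped almost fully, with a log2 fold change of 0.01 (95% interval -0.09 to 0.11, edgeR adjusted p = 0.930).

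**Figure D3:**
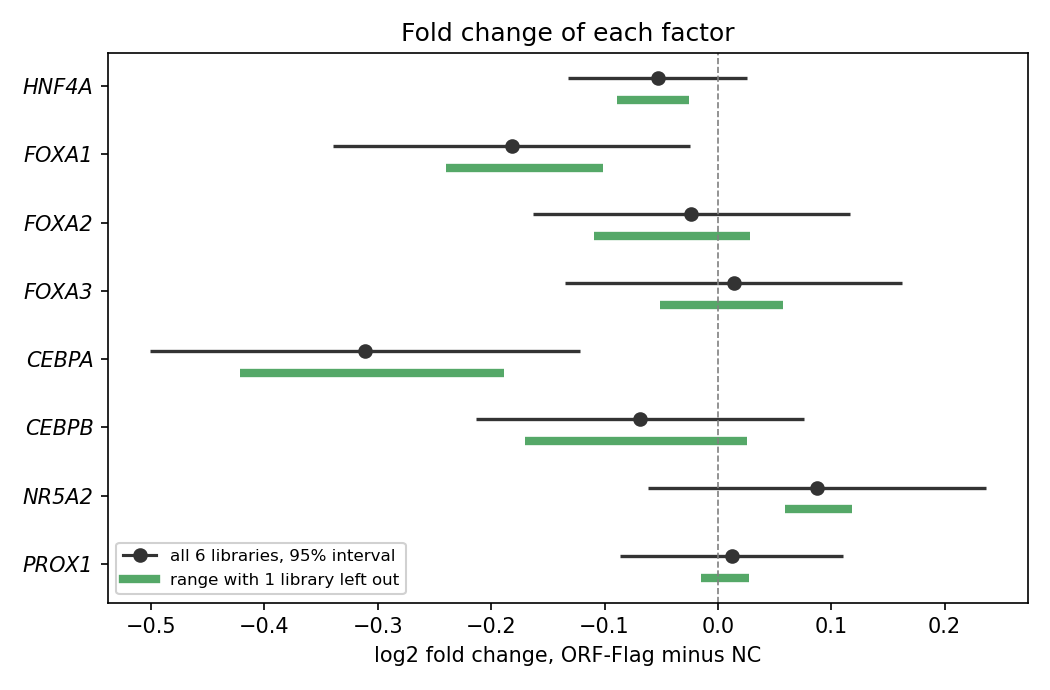
Log2 fold change of each factor, ORF-Flag minus NC, from edgeR with its 95% interval (dark line and point, n = 3 per group), and the range of the log2 fold change when each library is left out in turn (green bar). The 95% intervals of CEBPA and FOXA1 lie below 0 and the others span 0, and the range with a library left out spans 0 for FOXA2, FOXA3, CEBPB and PROX1.

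NC replicate 1 was the highest control library for several of these genes. It had the highest NC value for 6 of the 8 factors and the highest of all 6 libraries for 5. The share of all tested genes for which it was highest is not given here, so these counts are a description only. NC replicate 1 stood out in GC-rich genes. In the 1235 tested genes with the highest GC content, of 61.9% or more, its median deviation from the mean of the 6 libraries was 0.13 on the log2 scale, against 0.04 and -0.05 in the other NC libraries and -0.01, -0.05 and -0.04 in the ORF-Flag libraries. The GC content of the factors ranges from 40.0% to 66.2%, and 2 of them, CEBPA and CEBPB, lie in that GC-rich range. A further fit removed the dependence on GC content and length in every library. It called 0 of the 8 factors, beside 817 of all 12345 tested genes. The log2 fold change was then -0.24 for CEBPA (edgeR adjusted p = 0.0584) and -0.0033 for CEBPB (edgeR adjusted p = 0.983). For FOXA1 it was -0.18 (edgeR adjusted p = 0.133). HNF4A was at -0.05 in that fit, as in the fit without the correction. The part of GC content in the values of NC replicate 1 was not tested.

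Per kilobase of exon, which allows levels of different genes to be compared, CEBPB and HNF4A were the most abundant of the factors and NR5A2 the least. CEBPB had 21.2 ± 2.86 CPM per kilobase in NC and 20.1 ± 0.911 in ORF-Flag, and HNF4A had 20.03 ± 0.885 and 19.3 ± 0.456 (SD, n = 3). CEBPB was above HNF4A in 5 of 6 libraries, with NC replicate 3 the other way. FOXA2 followed at 12.4 ± 0.839 in NC and 12.1 ± 1.18 in ORF-Flag, below every library of HNF4A.

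The middle of the order was close. CEBPA, at 10.4 ± 1.67 CPM per kilobase in NC and 8.25 ± 0.986 in ORF-Flag, was below FOXA2 in all 6 libraries. It was above FOXA3, which stood at 9.0 ± 0.680 and 9.06 ± 0.394, in all 3 NC libraries and in ORF-Flag replicate 3, and below it in ORF-Flag replicates 1 and 2. PROX1, at 5.52 ± 0.0942 and 5.56 ± 0.175, and FOXA1, at 5.37 ± 0.545 and 4.70 ± 0.298, were below FOXA3 in every library, and PROX1 was above FOXA1 in all but NC replicate 1. NR5A2 was the lowest, at 2.08 ± 0.0704 and 2.21 ± 0.0827. Of the 12345 tested genes with an exon length, 84.5% were below CEBPB and 83.8% below HNF4A, whereas 31.7% were below NR5A2. The order depends on the gene model, and with the longest transcript in place of all exons HNF4A came first, FOXA3 passed CEBPA and FOXA1 passed PROX1.

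**Figure D4:**
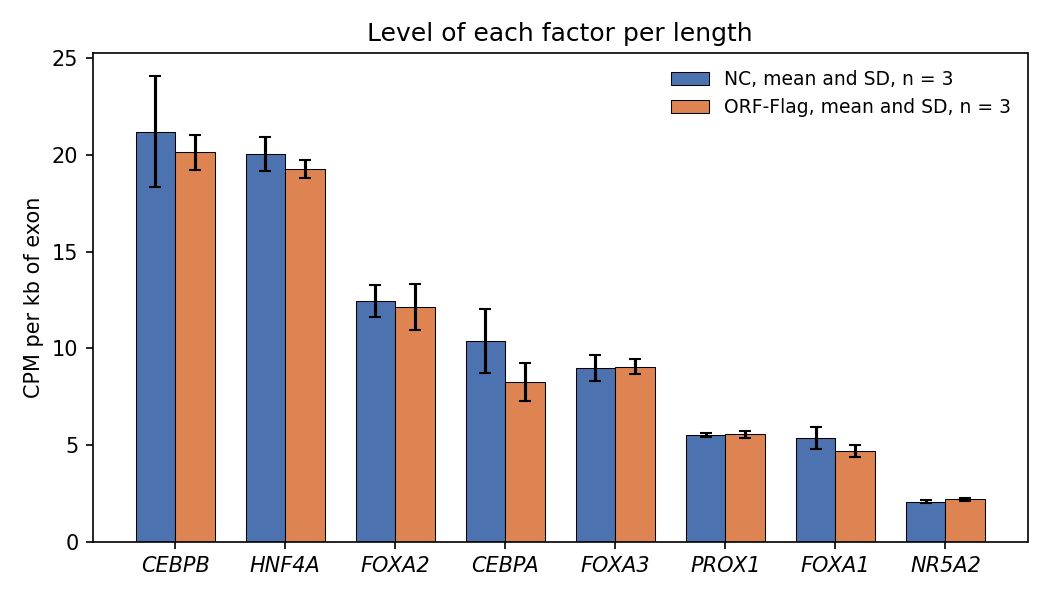
Mean level of each factor in CPM per kilobase of exon (bars from 0) with SD (n = 3) in NC and ORF-Flag, ordered by the mean of the 6 libraries. CEBPB and HNF4A are near 20 in both groups, and NR5A2 is near 2.

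The partners and targets of the factors included genes that rose, while none of those tested fell at an adjusted p below 0.05. Of the 70 genes on 7 lists of related genes, 61 were tested, and edgeR called 7, all higher in ORF-Flag, beside 4.45% of all tested genes called, 2.47% higher and 1.98% lower. The same shares over all tested genes stand beside the counts of each list below, and in lists this short nothing is read from a count of 0, 1 or 2. DESeq2, limma-trend and limma-voom each called 7 as well. At an unadjusted p below 0.05 in edgeR there were 15 of the 61, with 13 higher and 2 lower. Over all 12386 tested genes there were 2293, with 1151 higher and 1142 lower. The lists were chosen with earlier results of these data known, so these counts and directions are a description only. The median log2 fold change was 0.02 over the 61 genes, against -0.0012 over all tested genes, and no list was tested as a set.

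Of the other liver transcription factors 0 of 20 were called by edgeR, DESeq2, limma-trend or limma-voom, beside 4.45% of all tested genes in edgeR, and 1 of 20 had an unadjusted p below 0.05 in each of the 4 tools, beside 18.5% of all tested genes in edgeR. A count of 0 in 20 genes is near the share over all tested genes. That gene in edgeR was CREB3L3, a membrane-bound factor of the fasting response, chosen after its values were seen, with a log2 fold change of 0.28 and an edgeR adjusted p of 0.176. The 3 most abundant were XBP1, a factor of secretory capacity, at 0.05, TBX3, a regulator of liver bud growth, at -0.08, and NR1H4, the bile acid receptor FXR, at 0.03 on the log2 scale. The median of the list was -0.01.

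Of the other C/EBP genes 3 of 4 were tested, and DDIT3 rose while CEBPG and CEBPD did not pass the test. DDIT3 encodes CHOP, a C/EBP relative induced by stress that can dimerize with the C/EBP proteins and block their binding. It was at 17.6, 17.1 and 17.8 CPM in NC and at 20.4, 24.2 and 22.9 CPM in ORF-Flag. All ORF-Flag libraries were above all NC libraries, with a log2 fold change of 0.36 ± 0.07 (SE, edgeR adjusted p = 0.00466). Annotated genes on either strand, among them MARS, overlap 39.6% of the exon bases of DDIT3, so its count is uncertain. CEBPG had a log2 fold change of -0.02 and CEBPD of -0.16, and CEBPE, a gene of the myeloid lineage, was too low to test.

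Among the cofactors 16 of 17 were tested and 2 rose. NR0B2, or SHP, is a receptor without a DNA-binding domain that represses NR5A2 and HNF4A and is itself on the list of NR5A2 targets. It had 79.6, 80.6 and 76.4 CPM in NC and 98.0, 92.0 and 92.1 CPM in ORF-Flag. The groups did not overlap, and the log2 fold change was 0.26 ± 0.04 (SE, edgeR adjusted p = 0.000491). TLE4, a Groucho corepressor that FOXA proteins can recruit, had 18.3, 19.9 and 20.3 CPM in NC and 26.1, 23.4 and 24.2 CPM in ORF-Flag, again without overlap, with a log2 fold change of 0.33 ± 0.07 (SE, edgeR adjusted p = 0.00513). Without ORF-Flag replicate 1 the adjusted p of TLE4 was 0.0530. The 3 most abundant cofactors were the corepressor NCOR1 at -0.02, the Mediator subunit MED1 at 0.08 and the acetyltransferase EP300 at 0.09, none of them called, and the list median was 0.04.

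The HNF4A targets were led by apolipoproteins. Of 11 genes 8 were tested and 1, APOA2, a protein of high density lipoprotein, rose, by 0.16 on the log2 scale (SE 0.04, edgeR adjusted p = 0.00925). It was between 1732 and 1901 CPM in NC and between 1963 and 2046 CPM in ORF-Flag. The adjusted p of APOA2 was above 0.05 without NC replicate 2 (0.0646), ORF-Flag replicate 2 (0.0512) or ORF-Flag replicate 3 (0.0757). APOB, the main protein of the lipoproteins that carry triglyceride out of the liver, had a log2 fold change of -0.07, and APOA1 of -0.04, and neither was called. The list median was 0.05, and APOC2, F9 and CYP8B1 were too low to test. The count of APOC2 is uncertain, since 50.7% of its 31-base stretches also occur in transcripts of another gene.

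Of the FOXA targets 6 of 7 were tested and IGFBP1, a secreted binding protein of insulin-like growth factors that is a classic FOXA and FOXO1 target, was the 1 called gene. It had 276, 280 and 275 CPM in NC and 317, 318 and 325 CPM in ORF-Flag. The groups were well apart, with a log2 fold change of 0.21 ± 0.03 (SE, edgeR adjusted p = 0.000232). The most abundant genes of the list, ALB, SERPINA1 and TF, had log2 fold changes of 0.08, 0.09 and -0.01 and were not called. The list median was 0.06, and PCK1 was too low to test.

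Of the C/EBP targets 6 of 10 were tested and 2 rose, both of them acute phase genes. HP, haptoglobin, had 16.8, 14.1 and 15.4 CPM in NC and 21.6, 20.3 and 21.9 CPM in ORF-Flag, without overlap. Its log2 fold change was 0.47 ± 0.07 (SE, edgeR adjusted p = 0.000372), and 23.6% of its 31-base stretches also occur in transcripts of another gene, so its count is uncertain. FGB, a fibrinogen chain, had 344, 361 and 381 CPM in NC and 407, 400 and 392 CPM in ORF-Flag, also without overlap, with a log2 fold change of 0.14 ± 0.04 (SE, edgeR adjusted p = 0.0232). That call was lost, with adjusted p between 0.0624 and 0.117, when NC replicate 1, NC replicate 2 or any ORF-Flag library was left out. ORM1, an acute phase glycoprotein and the third of the most abundant, had a log2 fold change of 0.05 and was not called, and its count is uncertain too, since 56.1% of its 31-base stretches are shared. The list median was 0.08, and CRP, SAA1, SAA2 and PCK1 were too low to test. For SAA1 and SAA2, 62.8% and 24.0% of the 31-base stretches are shared, so their counts are uncertain as well.

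Of the NR5A2 targets 7 of 8 were tested and 1 rose, the NR0B2 gene described above. AFP, the fetal serum protein, and SCARB1, the receptor of high density lipoprotein, were the most abundant, with log2 fold changes of 0.03 and -0.04, and neither was called. The list median was 0.02, and CYP8B1 was too low to test. Against a fold change of 1.2 in glmTreat, 0 of the 61 related genes were called, beside 17 of all 12386 tested genes, so nothing is read from this count.

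**Figure D5:**
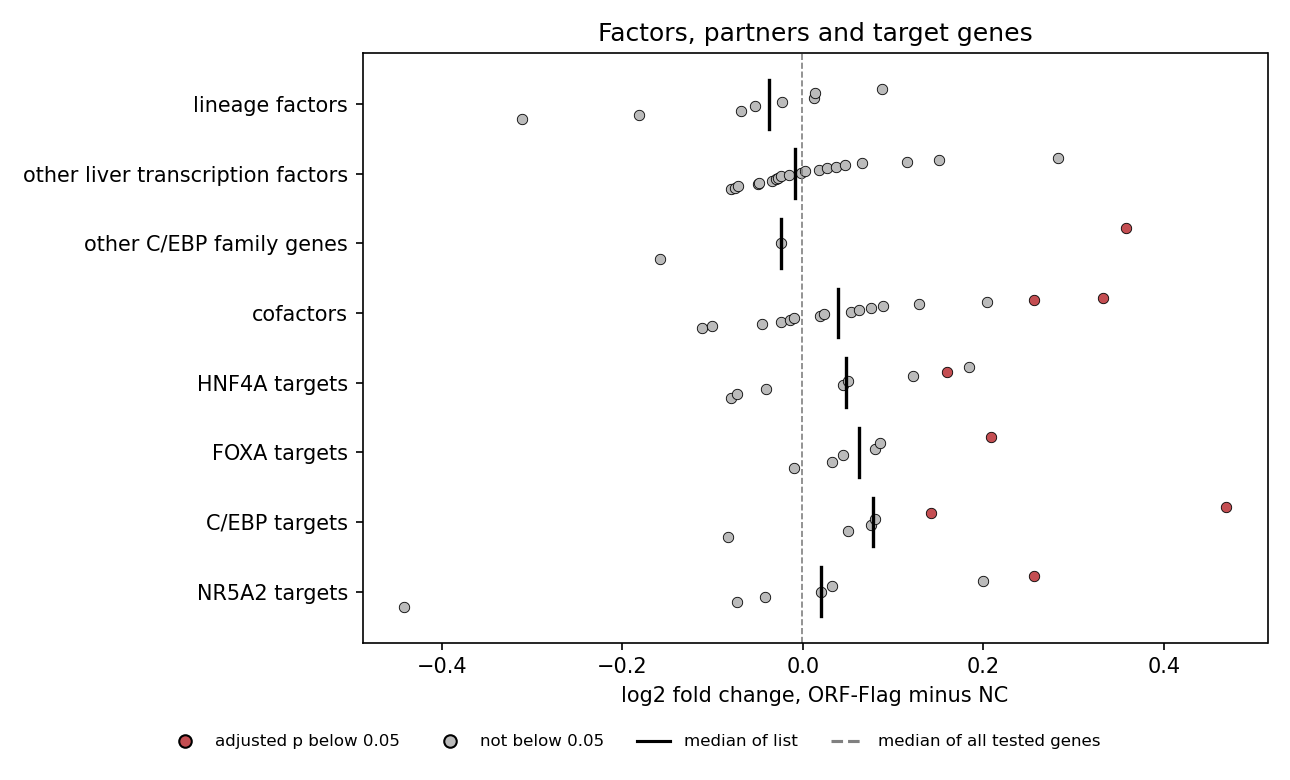
Log2 fold change, ORF-Flag minus NC, of each tested gene of the 8 lineage factors and of the 7 lists of related genes, with genes at an edgeR adjusted p below 0.05 in red, the median of each list as a black line and the median of all tested genes as a dashed line. None of the 8 lineage factors is red, and the red genes of the other lists are all to the right of 0.

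The cells carried the markers of their labelled type. All 10 hepatocyte markers were tested, and their summed level was 28584, 29160 and 29518 CPM in NC and 29693, 29266 and 29306 CPM in ORF-Flag. APOB was the most abundant, and FGB was the 1 gene called of 10, beside 4.45% of all tested genes. ALB, AFP, APOA1, SERPINA1, TF and AHSG had log2 fold changes between -0.04 and 0.09. APOB stood at -0.07, ASGR1, a receptor of the hepatocyte surface, at -0.03 and TTR, transthyretin, at 0.04, the last with between 5.63 and 6.66 CPM in the 6 libraries.

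Among the markers of bile duct cells, some of which HepG2 also makes, 2 of 4 tested were called, beside 4.45% of all tested genes. Their summed level was 1670, 1735 and 1756 CPM in NC and 1991, 2063 and 1980 CPM in ORF-Flag. Of 5 genes 4 were tested, 2 rose and 2 were not called, beside 2.47% of all tested genes called higher. In a list this short nothing is read from a count of 2. SPP1, osteopontin, the most abundant, had a log2 fold change of 0.24 ± 0.04 and KRT19, a keratin of bile duct and progenitor cells, of 0.21 ± 0.04 (SE, edgeR adjusted p = 0.000635 and 0.000636). SOX9, a factor of bile duct and progenitor cells, had a log2 fold change of 0.01 and KRT7, at between 0.185 and 0.574 CPM, of 0.37 (edgeR adjusted p = 0.925 and 0.759). KRT19, SOX9 and KRT7 were chosen after their values were seen. The part of these markers in the values of the lineage factors was not tested.

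The mesenchymal and endothelial markers left little signal, while the blood cell list held more, most of it from CD68. VIM among 6 mesenchymal markers, KDR among 4 endothelial markers, and PTPRC and CD3E among 4 blood cell markers had 0 counts in all 6 libraries, where 3 counts correspond to between 0.1 and 0.172 CPM, a limit for counting error only. Summed levels were between 0.574 and 1.08 CPM for the mesenchymal list, led by PDGFRB, between 4.16 and 5.01 CPM in NC and between 5.51 and 6.56 CPM in ORF-Flag for the endothelial list, led by PECAM1, and between 38.1 and 43.1 CPM for the blood cell list, led by CD68, for which 98.5% of the 31-base stretches are shared with another gene. Of these 3 lists 4 genes were tested, and edgeR, DESeq2, limma-trend and limma-voom each called 0, beside 4.45% of all tested genes in edgeR. PECAM1 was the 1 gene with an unadjusted p below 0.05 in each of the 4 tools, beside 18.5% of all tested genes in edgeR. In 4 genes nothing is read from a count of 0 or 1. PECAM1 was higher in every ORF-Flag library than in any NC library, with a log2 fold change of 0.39 (edgeR adjusted p = 0.0958). The groups were also apart in 22.4% of all tested genes.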

How the data were processed

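The analysis covered 3 NC and 3 ORF-Flag RNA-Seq libraries of HepG2 cells. The authors deposited unnormalized read counts for 20422 genes. The submitters' processing notes name cutadapt 1.11, HISAT2 2.1.0, featureCounts 1.6.0, edgeR and the build GRCh38, while the annotation release and the use of strand are not given in the sources used here. Depth ranged from 17494668 to 30088457 counts, and 3 counts equal from 0.1 to 0.172 CPM. Replicates of a group were compared by chi-square for duplicates (2.39 to 5.23 per degree of freedom, genes with 20 or more counts), and none was found. Identifiers were matched to symbols for 20421 of 20422 genes.

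The comparison used edgeR 4.0.16 in R 4.3.3 across all genes with filterByExpr's default filter (12386 genes kept), TMM, glmQLFit, glmQLFTest and Benjamini-Hochberg adjustment over all tested genes; a gene was called at an adjusted p below 0.05. Standard errors and 95% intervals were derived from the quasi-likelihood F statistic. Ratios and shares were tested with exact permutation in scipy 1.17.1. Exon lengths, GC content and overlaps came from GENCODE v29, and promoter windows from RefSeq. Alternatives were DESeq2 1.42.0, limma-trend and limma-voom in limma 3.58.1, edgeR without TMM, without the filter or with a minimum of 10 counts in all libraries, glmTreat (fold change 1.2), a replicate block, leaving out single libraries, and removal of the GC content and length trend with and without the block.

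Members and lists were chosen with earlier results of these data known. The genes named were the 8 factors, from each related list the called genes (up to 5 by smallest p) and the 3 of highest mean CPM, all hepatocyte markers, the tested bile duct markers, and from each other cell type the most abundant gene and those at 0 counts. CREB3L3, which this rule does not cover, was also named, as were some genes too low to test. Protein sequences were not analysed here.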

Additional observations from a re-analysis of the deposited data

How the results depend on the processing

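The number of factors called was 0 in glmTreat (17 of all 12386 tested genes called) and with the replicate block (731 of 12386). It was 0 too with the GC content and length trend removed (817 of 12345) and with no TMM (537 of 12386). A minimum of 10 counts in every library (557 of 11879), limma-voom (527 of 12386) and DESeq2 (431 of 12386) also gave 0. The number was 1, CEBPA, in limma-trend (594 of 12386) and with no filter on low counts (824 of 16367). With 1 library left out it was between 0 and 1, beside 199 to 1058 of all tested genes. In a list of 8 genes nothing is read from a count of 0 or 1. CEBPA had a log2 fold change of -0.32 with limma-trend, of -0.31 with no filter, and between -0.42 and -0.19 with 1 library left out, and the cause was not tested. HNF4A, FOXA1 and NR5A2 kept their direction and were not called in any of 16 alternatives each.

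Values near 0 changed sign. With the GC content and length trend removed, FOXA2 was at 0.0141 and PROX1 at -0.0184, and with the replicate block added to that FOXA2 was at 0.00511 and PROX1 at -0.0227. With 1 library left out the log2 fold change was between -0.109 and 0.0282 for FOXA2, -0.0507 and 0.0573 for FOXA3, -0.170 and 0.0253 for CEBPB and -0.0150 and 0.0272 for PROX1, and ORF-Flag minus NC was between -0.788 and 1.22 percentage points for the share of FOXA2, -2.71 and -1.02 for FOXA1 and 0.562 and 1.9997 for FOXA3.

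The number of related genes called was 7 with the replicate block (731 of all 12386 tested genes), between 5 and 9 with 1 library left out (199 to 1058 of all tested genes), 10 with the GC content and length trend removed (817 of 12345), and 0 with glmTreat (17 of 12386), which asks for a change above 1.2-fold. Whether replicate numbers pair the libraries is not settled here. The correlation across genes of same-numbered deviations from the group means was low, between 0.027 and 0.067, yet 5 of 6 libraries correlated best with their own number, and the block raised the calls over all genes from 551 to 731 while it changed none among the factors. With the longest transcript as length, levels in CPM per kilobase were 22.3 for HNF4A, 9.95 for FOXA3, 5.82 for PROX1, 7.0 for FOXA1 and 3.18 for NR5A2, by the construction of the measure. The 95% intervals of the 8 factors reach from -0.50 to 0.24 on the log2 scale.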
